A study of Saccharomyces cerevisiae with 6 samples.

Results

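Transcript levels were compared between a mot1 mutant of budding yeast (Saccharomyces cerevisiae), mot1-14, and a bypass strain in which TBP-F207L, a variant of the TATA-binding protein (TBP), lets cells live without Mot1. The series holds 6 two-colour oligonucleotide arrays, of which 4 carry the comparison, 2 for mot1-14 and 2 for TBP-F207L. Every array set a mutant against the common wild-type MOT1 reference (WT), with the mutant in Cy5 on array 1 and in Cy3 on array 2. The mutants never shared an array, so the comparison is indirect: the log2 ratio of TBP-F207L to WT minus that of mot1-14 to WT, taken between arrays of the same dye orientation. All probes for genes entered it, and control spots did not. Below, "the difference" is this quantity, positive where the transcript was more abundant in TBP-F207L.

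Per the labels, all strains were derived from the parent AY138 and taken after selection on FOA. WT carried the plasmid pAV20, mot1-14 carried pMOT244, and the bypass strain carried pTBP-F207L. The labels give the same growth in rich medium (YPD) for every strain and no further genotype. The alleles were thus on plasmids, and whether a strain's arrays came from separate cultures is not in the labels. The p-values therefore rest on array-to-array spread, possibly technical only, and the WT strain's own spread is not in the test. The arrays of a strain shared a slide that held no other strain, so slide and strain cannot be told apart.

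TBP binds the TATA box or TBP-binding cofactors at promoters and nucleates the assembly of the transcription machinery. Mot1 is an essential ATPase of the Swi2/Snf2 family that uses ATP to dissociate TBP from DNA, and it is known in yeast both for repressing and for activating genes. Certain amino acid changes in TBP make the loss of Mot1 tolerable. The comparison asks where a strain that lives without Mot1 differs from a strain with a defective Mot1.

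On the 4 arrays, red signals were at the median 8.05 to 22.7 times local background, and green ones 6.74 to 10.2 times. Once turned to the same direction, the ratios on the arrays of a strain correlated over genes at 0.93 for mot1-14 and 0.94 for TBP-F207L. Array 1 of TBP-F207L stood apart in its floor: its dimmest red spot had a signal of 60.2, against 36.1 to 39.0 on the other 5 arrays of the series. With only 2 arrays per strain, the number of arrays limits the precision. Loess normalization centres each array, so a change common to every transcript would go unnoticed.

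Differences between the strains were widespread and mostly small. Of 6127 genes tested, 3611 passed limma's test at a Benjamini-Hochberg adjusted p under 0.05 (58.9%), 1794 higher in TBP-F207L (29.3%) and 1817 lower (29.7%). The median size of the difference among genes that passed was 0.31 on the log2 scale. Only 31 genes were higher by 2-fold or more (0.506%) and 61 were lower by as much (0.996%). The median difference of all genes tested was 0.00. The difference taken on arrays 1 and that taken on arrays 2 correlated across genes at 0.93, a description of these arrays into which the shared probes enter. All 3611 genes that passed had the same sign in both. The test largely sets this, since it sets the mean of the 2 differences against a spread that includes their disagreement. When the WT channel alone was compared between the 2 slides with the same model, 0 of 6127 genes passed limma's test after adjustment and 322 had an unadjusted p under 0.05. The mutants' own channels, compared without division by WT, gave 1367 genes that passed (22.3%; 1.88% by 2-fold or more), an alternative chosen after the data were seen. Without a term for dye orientation 1588 genes passed (749 higher, 839 lower), and in the mutants' own channels 593 were higher and 774 lower. Where either setting moved a list's count by more than 1.5 times, its counts are given below. The shares of all genes tested, 29.3% higher and 29.7% lower, are the background for the list counts below. Against WT, 4486 genes passed in mot1-14 (73.2%) and 4887 in TBP-F207L (79.8%, with 40.4% higher). These comparisons share the WT samples, so their values are given side by side and not set against each other.

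**Figure D1:**
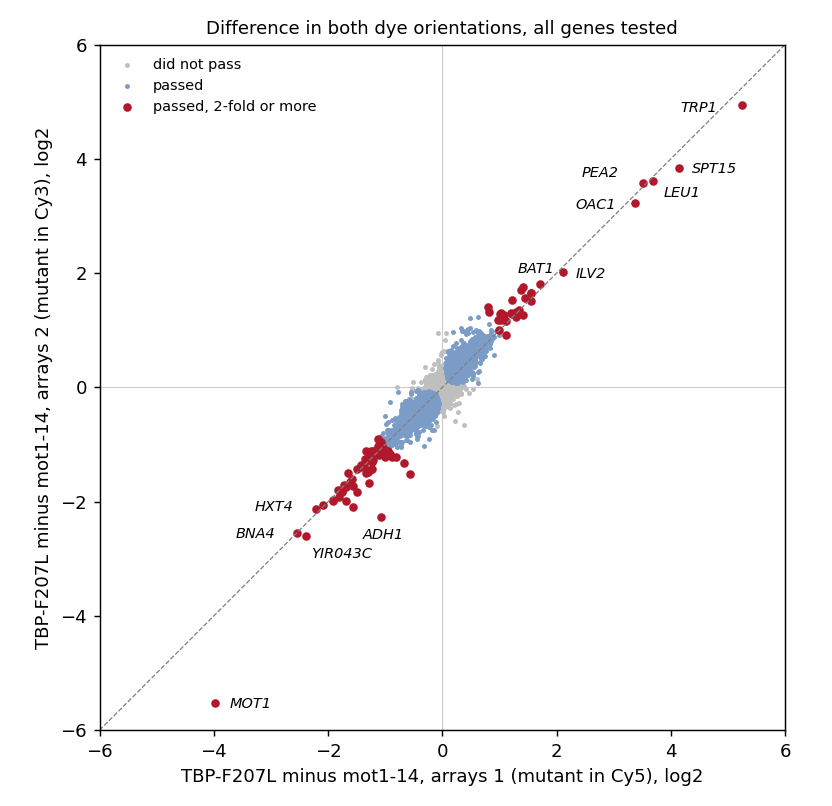
Each point is 1 of 6127 genes, with the log2 difference TBP-F207L minus mot1-14 on arrays 1 on the horizontal axis and on arrays 2 on the vertical axis, and colours give the outcome of limma's test. The points lie along the dashed line of equality, with TRP1, SPT15, LEU1, PEA2 and OAC1 at the upper right and MOT1 alone at the lower left.

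Genes that define the strains were among the largest differences. MOT1 (YPL082C) lay at 2.24 and 2.11 above WT on the mot1-14 arrays and at -1.74 and -3.41 on the TBP-F207L arrays. The groups did not overlap, and the TBP-F207L arrays lay far apart from each other. The difference was -4.75 (SE 0.42, adjusted p = 0.000122), a 26.9-fold lower signal, and was -3.83 without TBP-F207L array 2 and -5.67 without array 1. SPT15 (YER148W), which encodes TBP, lay at -0.49 and -0.23 in mot1-14 and at 3.65 and 3.62 in TBP-F207L. Its difference was 3.99 (SE 0.13, adjusted p = 2.74e-06). PEA2 (YER149C), a cell polarity gene next to SPT15, differed by 3.55 (SE 0.05). The marker gene TRP1 (YDR007W) differed by 5.10 (SE 0.18), from -0.50 and -0.68 in mot1-14 to 4.74 and 4.27 in TBP-F207L. LEU2, another marker, was above WT in both strains, at 2.92 and 3.11 in mot1-14 and 1.77 and 2.01 in TBP-F207L, and was lower in TBP-F207L by 1.12 (SE 0.05). URA3 differed by -0.17 (SE 0.08, adjusted p = 0.0935), and passed without array 1 of mot1-14 (-0.29) or of TBP-F207L (-0.30). For these genes, regulation and the plasmids used to build the strains cannot be told apart.

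Apart from the strain genes, the branched-chain amino acid pathway held the largest positive differences. Yeast makes leucine, isoleucine and valine largely in the mitochondrion, and Leu3 activates several of the genes when the leucine intermediate isopropylmalate is abundant. Of 15 genes of the pathway and its uptake, 10 were higher in TBP-F207L and 4 lower. The median difference was 0.64, against 0.00 for all genes tested. The 15 include the marker LEU2, which is among the lower ones and may reflect the plasmids. LEU1 (YGL009C), the isopropylmalate isomerase, lay at -0.44 and -0.37 in mot1-14 and at 3.24 and 3.24 in TBP-F207L. The mutants were thus on opposite sides of WT, and LEU1 was 12.5-fold higher in TBP-F207L (difference 3.65, SE 0.05, adjusted p = 4.56e-08). OAC1 (YKL120W), the mitochondrial carrier that exports isopropylmalate, lay at -0.90 and -0.77 in mot1-14 and at 2.47 and 2.45 in TBP-F207L. Its difference of 3.30 (SE 0.06) is a 9.85-fold higher level, and again no array of TBP-F207L came near those of mot1-14.

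The other enzymes differed less and not all in the same direction. ILV2, the catalytic subunit of acetolactate synthase at the entry of the pathway, differed by 2.06 (SE 0.05), from -0.24 and -0.34 to 1.87 and 1.67. ILV6, the regulatory subunit of the same enzyme, was lower (difference -0.30, SE 0.05), with both strains below WT. BAT1, the mitochondrial aminotransferase that ends the pathway, differed by 1.76 (SE 0.05), and its cytosolic counterpart BAT2 by 0.34. LEU4, the main isopropylmalate synthase, differed by 1.51 (SE 0.05), and its paralog LEU9 by 0.64, from -0.90 and -0.70 in mot1-14 to -0.20 and -0.12 in TBP-F207L. ILV3 and ILV5, which act between ILV2 and the branch to leucine, were higher by 0.86 and 0.51. Some of these calls were lost under an alternative: ILV6 and BAT2 with median centring (-0.23 and 0.23) and without the dye term, ILV6 and ILV3 in the separate channels. The isoleucine enzyme ILV1, which deaminates threonine, was lower by 0.65, and the permeases BAP2 and BAP3 differed by 0.73 and -0.58, with BAP3 not past the test without the dye term (adjusted p = 0.0535). The transcript of the regulator LEU3 itself did not pass the test (difference 0.11, SE 0.05, adjusted p = 0.0795). Beyond the pathway, GDH1, the glutamate dehydrogenase that assimilates ammonium, was higher by 0.84 (SE 0.05).

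NAD synthesis from tryptophan held the largest negative difference after MOT1. Of 16 genes of NAD synthesis and salvage, 9 were lower in TBP-F207L and 1 was higher, with a median of -0.36 (7 lower and 0 higher without the dye term, 6 and 0 in the separate channels). BNA4 (YBL098W), kynurenine 3-monooxygenase, lay at 1.63 and 1.49 in mot1-14 and at -0.91 and -1.05 in TBP-F207L. Its level was 5.82-fold lower in TBP-F207L (difference -2.54, SE 0.05, adjusted p = 2.25e-07), with mot1-14 above WT and TBP-F207L below it on every array. BNA5, kynureninase, the next step, went from 0.40 and 0.65 to -1.51 and -1.33 (difference -1.95, SE 0.05). BNA7, the formamidase before BNA4, was near WT in mot1-14 at 0.17 and 0.13 and at -1.11 and -1.15 in TBP-F207L (difference -1.28, SE 0.05). BNA2 and BNA6, the first and the last enzyme of the branch, were lower by 0.73 and 0.68, and BNA2 by 1.30 with the deposited log ratios. BNA1, the dioxygenase after BNA5, stood apart from its neighbours: it lay at -1.70 and -1.84 in mot1-14 and at -1.63 and -1.95 in TBP-F207L. It was thus far below WT on all 4 arrays, and its difference of -0.02 (SE 0.06, adjusted p = 0.804) did not pass.

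**Figure D2:**
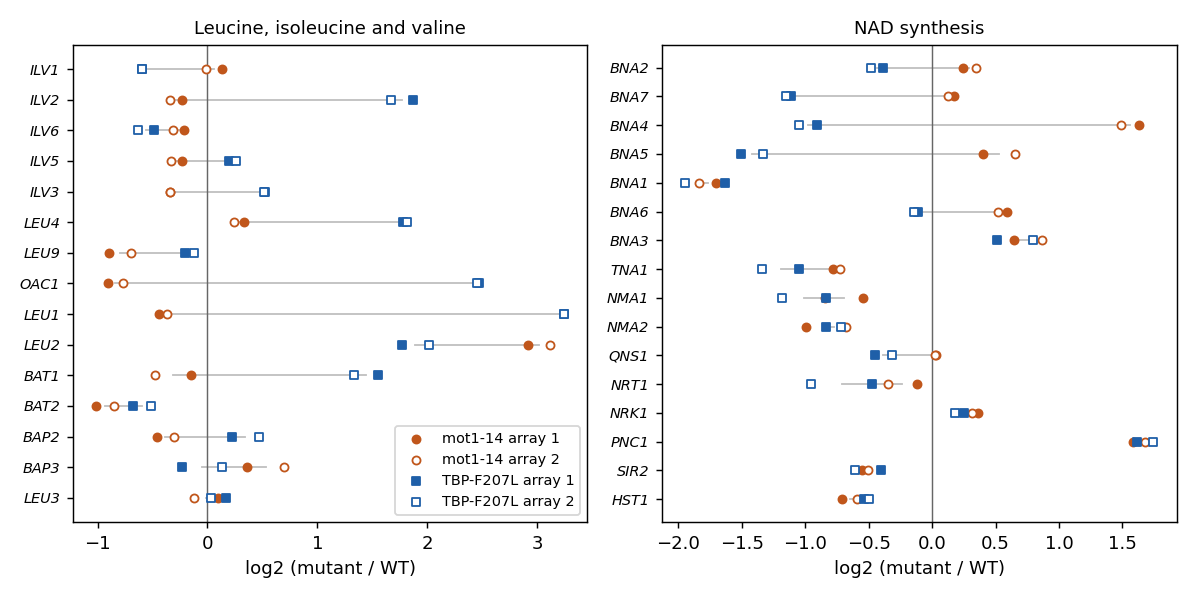
Log2 ratio of mutant to WT on each of the 4 arrays for 15 branched-chain amino acid genes and 16 NAD genes, with circles for mot1-14, squares for TBP-F207L, filled symbols for array 1, open symbols for array 2 and a grey line between the group means. LEU1 and OAC1 are far to the right in TBP-F207L, BNA4 and BNA5 change sides of the WT line, and BNA1 lies near -1.8 in both strains.

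Genes of glycolysis and fermentation were lower in TBP-F207L than in mot1-14 with few exceptions. Of 28 genes of glycolysis and fermentation, 24 were lower and 0 higher, with a median of -0.71, and 7 were lower by 2-fold or more. The median against WT was 0.14 in mot1-14 and -0.58 in TBP-F207L. In all, 29.7% of genes tested were lower. ENO1 and ENO2, the enolases, were lower by 1.37 (SE 0.05) and 1.27 (SE 0.06). ENO1 lay at 0.11 and 0.38 in mot1-14 and at -1.26 and -0.98 in TBP-F207L. CDC19, the main pyruvate kinase, was at -0.11 and -0.41 in mot1-14 and -1.12 and -1.62 in TBP-F207L (difference -1.11, SE 0.07). The enolases and CDC19 showed no overlap between the strains.

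ADH1, the main fermentative alcohol dehydrogenase, lay at -0.07 and 0.14 in mot1-14 and at -1.14 and -2.14 in TBP-F207L. Its difference of -1.67 (SE 0.26, adjusted p = 0.00129) is less certain than the others, since its spot was saturated on 1 mot1-14 array and the value was -1.09 without mot1-14 array 2 and -2.25 without array 1. The phosphofructokinase subunits PFK1 and PFK2 were lower by 0.79 and 0.68, the aldolase FBA1 by 1.05 (SE 0.19), and the glyceraldehyde-phosphate dehydrogenases TDH2 and TDH3 by 0.92 and 0.71. FBA1 was lower by 0.62 without mot1-14 array 2 and by 1.62 with median centring, and in the separate channels its -0.64 did not pass (adjusted p = 0.113). Isoenzymes that were high in mot1-14 were also lower in TBP-F207L. HXK1, a hexokinase that WT cells keep low on glucose, lay at 1.98 and 2.31 in mot1-14 and at 0.64 and 1.20 in TBP-F207L (difference -1.23, SE 0.07). TDH1, the stress isoenzyme, lay at 1.44 and 1.33 in mot1-14 and at 0.23 and 0.07 in TBP-F207L (difference -1.24, SE 0.05, and -0.65 in the separate channels). PDC1, the main pyruvate decarboxylase, passed at -0.57 (SE 0.14, adjusted p = 0.0115) although its arrays overlapped, and lay between -0.26 and -0.88 when a mot1-14 array was left out and at -0.37 without TBP-F207L array 2. The PDC1 call was lost without the dye term (adjusted p = 0.311), in the separate channels (adjusted p = 0.175), with the deposited log ratios (adjusted p = 0.0836) and with the series table (adjusted p = 0.0824), while median centring gave -1.13. The genes that did not pass were PGI1, phosphoglucose isomerase, and PGK1, phosphoglycerate kinase, each with a difference of 0.02 that did not pass (adjusted p = 0.775 and 0.756; with median centring both passed, at -0.26 and -0.57), and the minor genes PDC6 (which passed without TBP-F207L array 1, at -0.19) and ADH4. Near-identical paralogs such as TDH2 and TDH3 or ENO1 and ENO2 may share probe signal, and the values of each are uncertain to that extent.

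Among 25 genes of hexose transport and glucose signalling, 8 were higher and 8 lower, with a median of 0.03 and transporters in both groups. These shares were near the 29.3% and 29.7% of all genes tested. Without the dye term 5 were higher and 6 lower, and in the separate channels 5 and 5. HXT1, of low affinity for glucose, lay at -1.07 and -0.95 in mot1-14 and at -2.33 and -2.39 in TBP-F207L (difference -1.35, SE 0.08). HXT3, also of low affinity, was near WT in mot1-14, at -0.18 and -0.16, and at -1.89 and -1.87 in TBP-F207L (difference -1.71, SE 0.05, adjusted p = 1.16e-06). HXT4 lay at 0.30 and 0.54 in mot1-14 and at -1.91 and -1.60 in TBP-F207L (difference -2.17, SE 0.05), the third largest fall after BNA4 and YIR043C among genes that do not define the strains. Other transporters of high affinity were higher. HXT6 and HXT7, which are nearly identical and share signal, differed by 0.76 and 0.74 (HXT7 by 0.48 without TBP-F207L array 2, and not past the test without the dye term), and HXT2 by 0.46. The glucose sensor RGT2 was lower by 0.35 (0.73 with the deposited log ratios, 0.70 in the separate channels), the second sensor SNF3 did not pass (difference -0.12), and the repressor genes MIG1 and STD1 were higher by 0.28 and 0.34, STD1 not in the separate channels (0.19). Of 16 pentose phosphate genes, 9 were lower and 2 higher, against 7 and 0 without the dye term and 4 and 1 in the separate channels. RPE1 and TAL1, of the non-oxidative branch, were lower by 1.05 and 0.82.

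**Figure D3:**
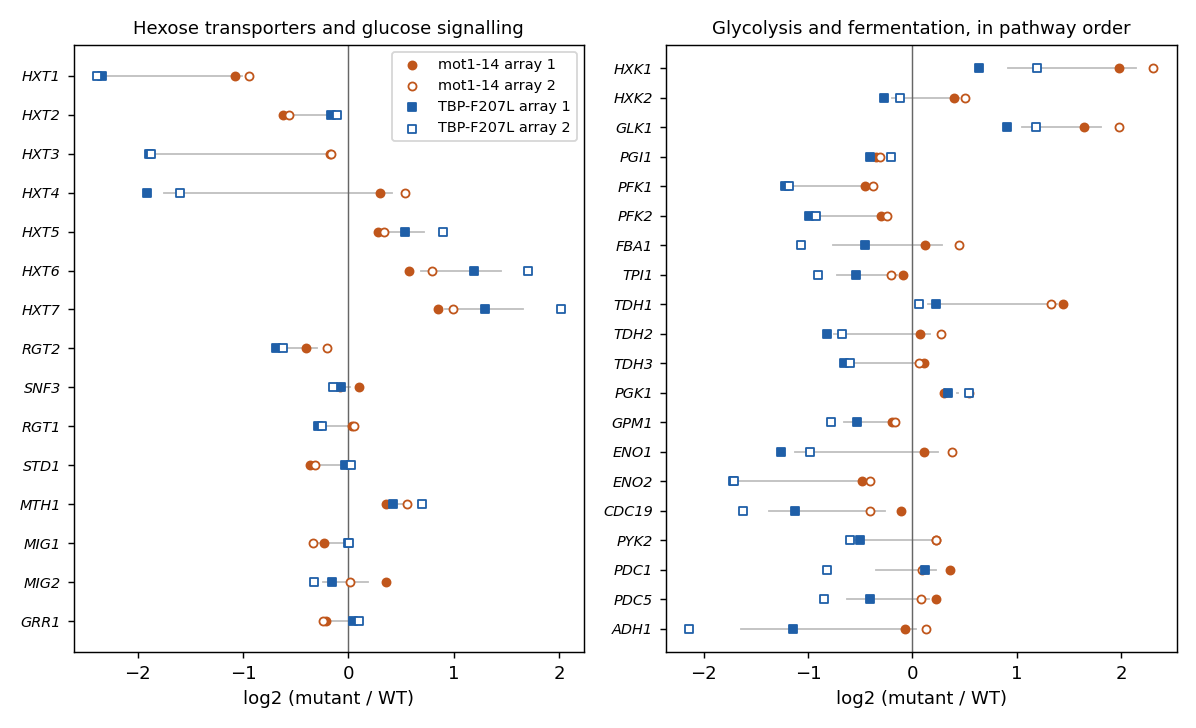
Log2 ratio of mutant to WT on each of the 4 arrays for 15 hexose transporter and glucose signalling genes and for 20 enzymes of glycolysis and fermentation in pathway order, with symbols as in the plot of leucine and NAD genes. HXT1, HXT3 and HXT4 lie far to the left in TBP-F207L, HXT6 and HXT7 to the right, and of the enzymes drawn all but PGI1 and PGK1 passed as lower in TBP-F207L, those 2 passing as lower with median centring only.

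The COS genes, a family of subtelomeric membrane protein genes with roles in sorting proteins to the vacuole, were high in mot1-14 and near or below WT in TBP-F207L. Of 12 members, 11 were lower in TBP-F207L and 0 higher, with a median of -1.19, and 6 were lower by 2-fold or more. The median against WT was 1.02 in mot1-14 and -0.16 in TBP-F207L. COS1 lay at 1.06 and 1.28 in mot1-14 and at -0.75 and -0.64 in TBP-F207L (difference -1.87, SE 0.06, adjusted p = 2.74e-06). COS8 lay at 1.55 and 1.80 and at -0.01 and -0.29 (difference -1.83, SE 0.11). On no array did a strain reach the other's values. COS10 was the member that did not pass (difference -0.07), and with median centring it did, at -0.33. YIR043C, which together with an adjacent reading frame may represent a non-functional COS gene, had the second largest fall outside the strain genes: it lay at 1.999 and 2.14 in mot1-14 and at -0.39 and -0.47 in TBP-F207L (difference -2.50, SE 0.06). COS sequences are alike, and probes may take signal from several members.

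The seripauperin and related cell wall mannoprotein genes (PAU, DAN, TIR), known for expression in anaerobic cells, moved in the same direction by less. Of 30 members, 28 were lower in TBP-F207L and 0 higher, with a median of -0.48. The median against WT was 0.51 in mot1-14 and 0.02 in TBP-F207L. TIR3 lay at 1.14 and 0.91 in mot1-14 and at 0.05 and -0.20 in TBP-F207L (difference -1.10, SE 0.06). PAU17 was lower by 0.85, and the other PAU genes by 0.27 to 0.61. DAN1 and TIR4 did not pass, at 0.01 and -0.10. The PAU probes detect near-identical genes and are not independent of each other, and with the mutants' own channels alone 8 of the 30 passed. Other wall genes shared the direction: of 39 wall enzymes and mannoproteins, 22 were lower and 4 higher, with a median of -0.25 (11 and 2 without the dye term, 12 and 2 in the separate channels). CWP1, a major wall mannoprotein, lay at 0.87 and 0.77 in mot1-14 and at -1.22 and -1.28 in TBP-F207L (difference -2.07, SE 0.05, adjusted p = 5.78e-07). SLT2, the kinase of the cell integrity pathway, was higher by 0.59 and the chitin synthase CHS1 by 0.50.

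Proteasome genes were higher in TBP-F207L almost throughout. Of 34 genes for subunits, the assembly factor UMP1 and the regulator RPN4, 30 were higher and 0 lower, with a median of 0.40. The median against WT was 0.03 in mot1-14 and 0.35 in TBP-F207L. RPN4, the transcription factor that activates proteasome genes, lay at 0.29 and 0.32 in mot1-14 and at 1.40 and 1.48 in TBP-F207L (difference 1.14, SE 0.05, adjusted p = 6.38e-06). PRE6, a subunit of the core particle, lay at 0.20 and 0.18 and at 1.18 and 1.16 (difference 0.98, SE 0.05). RPN1, a base subunit of the regulatory particle, was higher by 0.77 and PUP2 of the core by 0.65. RPN12, PRE4, PRE10 and PRE8 did not pass, with differences of 0.07 to 0.11, although PRE8 passed at 0.22 without mot1-14 array 1. With the mutants' own channels alone, 18 of the 34 passed, all higher.

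Heat shock genes did not move as 1 group. Of 32 chaperone genes, 18 were higher and 8 lower, against 29.3% and 29.7% of all genes tested. The median of the list was 0.25, and the counts were 13 and 2 without the dye term and also in the separate channels. Several cochaperones of Hsp90 were higher. SBA1, the p23 homolog, lay at 0.02 and 0.49 in mot1-14 and at 1.44 and 1.76 in TBP-F207L (difference 1.34, SE 0.06, adjusted p = 7.36e-06). CPR6, a cyclophilin that binds Hsp90, was higher by 1.10 and the kinase-specific cochaperone CDC37 by 0.59. Of the Hsp90 genes, HSC82 was higher by 0.68 (0.40 with median centring) and HSP82, high in both strains at 1.77 and 1.91 above WT, differed by 0.14 and did not pass (adjusted p = 0.0892), but did at 0.20 without TBP-F207L array 1. The J-proteins YDJ1, MDJ1 and SIS1 were higher by 0.80, 0.81 and 0.58. The Hsp70 genes SSA1, SSA4 and SSA2 were lower by 0.56, 0.55 and 0.39 (SSA2 by 0.23 without mot1-14 array 1). None of these 3 passed without the dye term (adjusted p = 0.128, 0.0557 and 0.305), and SSA4 and SSA2 did not in the separate channels (adjusted p = 0.295 and 0.0632).

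Small heat shock and stress membrane protein genes were lower in 11 of 16 cases and higher in 2, with a median of -0.49 (7 and 1 without the dye term). YRO2, a membrane protein gene related to HSP30, lay at 2.07 and 2.52 in mot1-14 and at 0.24 and 0.72 in TBP-F207L (difference -1.81, SE 0.05, adjusted p = 9.01e-07). HSP31, a glyoxalase and chaperone, lay at 0.90 and 1.04 and at -0.86 and -0.78 (difference -1.79, SE 0.05). HSP26 was lower by 0.83 (SE 0.08), whereas the other small heat shock gene, HSP42, was higher by 0.75 (SE 0.12), both being above WT in either strain. With scale normalization between arrays HSP42 differed by 0.32 and did not pass. PMP1 and PMP2, regulators of the plasma membrane proton pump, were lower by 0.89 and 0.79 and lay near WT in mot1-14. Of 48 genes of the general stress response, 9 were higher and 16 lower, against 29.3% and 29.7% of all genes tested. The other 23 did not pass, and the median of the list was -0.04. The median of the 48 against WT was 1.25 in mot1-14 and 1.04 in TBP-F207L. TMA10, a ribosome-associated protein gene, lay at 3.95 and 3.90 in mot1-14 and at 3.65 and 4.26 in TBP-F207L, with a difference of 0.03 (SE 0.15, adjusted p = 0.89). Its direction was not settled: it passed as higher without TBP-F207L array 1 (0.35) and in the separate channels (0.62), and as lower without TBP-F207L array 2 (-0.30) and with scale normalization (-0.57). Single arrays moved this split: 14 were higher and 14 lower without TBP-F207L array 1, and 7 higher and 25 lower without array 2. Without the dye term 1 was higher and 8 lower, and in the separate channels 7 and 6.

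Ribosomal protein genes tended to be lower in TBP-F207L, and ribosome assembly genes to be higher. Among all genes tested, 29.7% were lower and 29.3% higher. Of 81 genes for the large subunit, 41 were lower and 13 higher, with a median of -0.21. Of 57 for the small subunit, 26 were lower and 8 higher, with a median of -0.11. These splits depend on the normalization: with each array centred on its median and no loess, 58 were lower and 1 higher in the large subunit, and 41 lower and 1 higher in the small. Without the dye term 24 were lower and 2 higher in the large subunit and 17 and 3 in the small, and in the separate channels 21 and 4, and 12 and 2. Without mot1-14 array 1, 8 large-subunit genes were higher. RPL20A, already low in mot1-14 at -1.06 and -1.19, lay at -2.02 and -2.14 in TBP-F207L (difference -0.96, SE 0.06). RPS11A and RPS11B, a duplicated pair whose probes may share signal, were both lower by 0.87. RPL38 and RPS26B were among the few that were higher, by 0.56 and 0.57, but at 0.17 and 0.12 with median centring they did not pass.

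Of 62 genes for assembly of the large subunit, 35 were higher and 6 lower, with a median of 0.19 (19 and 0 without the dye term, 10 and 1 in the separate channels). Their median against WT was -0.62 in mot1-14 and -0.43 in TBP-F207L. RRP15 lay at -0.28 and -0.33 in mot1-14 and at 0.55 and 0.43 in TBP-F207L (difference 0.80, SE 0.05). Of 45 genes of the small-subunit processome, 19 were higher and 7 lower, against 29.3% and 29.7% of all genes tested. The median of the list was 0.11. The counts were 24 and 1 with scale normalization between arrays, 8 and 2 without the dye term and 6 and 1 in the separate channels. Without mot1-14 array 2, 2 were lower. BFR2 and RRP7 were higher by 0.53 and 0.51, and NOP1, the methyltransferase of box C/D RNAs, was lower by 0.50. Of 33 genes of RNA polymerases I and III and their factors, 13 were higher and 10 lower, against 29.3% and 29.7% of all genes tested. Without the dye term 6 were higher and 5 lower, and in the separate channels 3 and 5. RPC40 and RPA135 were lower by 0.65 and 0.61, and RPC37 of polymerase III was higher by 0.90 (SE 0.05), with an adjusted p of 0.0536 in the separate channels.

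Among genes of the transcription machinery itself, those of the general factors, TFIID and SAGA were more often higher than lower, and most Mediator genes did not pass. The shares of all genes tested were 29.3% higher and 29.7% lower. Of 20 genes for TBP, its direct regulators and the general factors, SPT15 and MOT1 included, 13 were higher and 4 lower, with a median of 0.17 (8 and 3 without the dye term, 6 and 1 in the separate channels). SPT8, a SAGA subunit that binds TBP, lay at -0.30 and -0.03 in mot1-14 and at 0.70 and 0.98 in TBP-F207L (difference 1.00, SE 0.05, adjusted p = 1.77e-05). SPT3, the other TBP-binding subunit of SAGA, was higher by 0.53 and the scaffold SPT20 by 0.76 (0.50 without TBP-F207L array 2, 1.27 in the separate channels). BUR6, a subunit of the TBP inhibitor NC2, was higher by 0.52 (SE 0.05), with mot1-14 already at 1.20 and 1.35 above WT, and by 0.30 with scale normalization. NCB2, the other NC2 subunit, was lower by 0.37 (SE 0.07). TOA1 and TOA2, the subunits of TFIIA, also parted, at 0.46 and -0.51, and TFG1 of TFIIF was higher by 0.68. In the separate channels SPT3, NCB2 and TOA2 did not pass (adjusted p = 0.102, 0.0588 and 0.129). Of 24 other TFIID and SAGA genes 14 were higher and 4 lower, with 14 and 0 by median centring, 8 and 1 without the dye term and 6 and 0 in the separate channels. In Mediator, GAL11 of the tail was higher by 0.54 and SRB2 of the head was lower by 0.88, with 8 higher, 2 lower and 14 that did not pass among 24 genes, against 29.3% of all genes higher. Mediator counts were 12 and 2 without TBP-F207L array 1, 4 and 1 without the dye term and 1 and 1 in the separate channels.

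**Figure D4:**
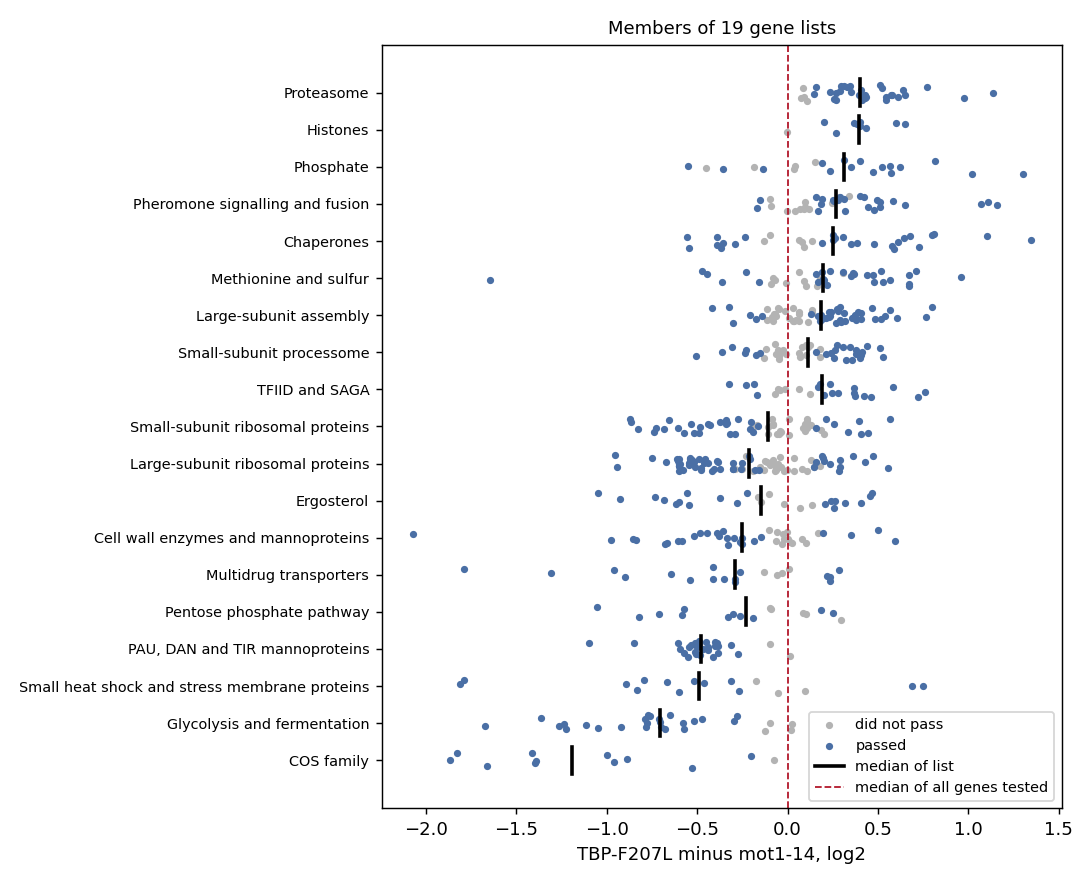
Each point is the log2 difference TBP-F207L minus mot1-14 of a member of 1 of 19 gene lists, blue where limma's test was passed, with the list's median as a black bar and the median of all genes tested as a dashed line. The proteasome list lies to the right of the line and the COS, glycolysis and PAU lists to the left, while chaperones and ribosomal protein genes spread over both sides.

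Of 23 citric acid cycle and retrograde genes, 10 were higher and 8 lower in TBP-F207L, against 29.3% and 29.7% of all genes tested. The counts were 8 and 4 with median centring, 5 and 4 without the dye term and 4 and 3 in the separate channels. CIT2, the peroxisomal citrate synthase by which retrograde signalling is commonly read, lay at -0.45 and -0.47 in mot1-14 and at 0.89 and 0.88 in TBP-F207L (difference 1.34, SE 0.05, adjusted p = 3.9e-06). DLD3, a lactate dehydrogenase also under retrograde control, was higher by 1.08 and the pyruvate carboxylase PYC1 by 0.73. ACO1, FUM1 and LSC2, enzymes of the cycle itself, were lower by 0.49, 0.53 and 0.49, LSC2 not without the dye term or in the separate channels. CYB2, the mitochondrial L-lactate dehydrogenase, lay at -0.42 and -0.31 in mot1-14 and at 0.66 and 0.95 in TBP-F207L (difference 1.17, SE 0.06), and at 1.76 with the deposited log ratios. SER3, the first enzyme of serine synthesis, was above WT in both strains, at 0.62 and 0.54 and at 2.18 and 2.18 (difference 1.60, SE 0.05). HOM2, which acts on the route to methionine and threonine, was near WT in mot1-14 at 0.03 and 0.14 and at 1.03 and 1.06 in TBP-F207L (difference 0.96, SE 0.05). Of 38 genes of methionine and sulfur metabolism, 22 were higher and 6 lower, with a median of 0.20 (15 and 6 in the authors' series table, 14 and 3 without the dye term, 12 and 4 in the separate channels). The lowest of them was IRC7, a cysteine desulfhydrase, at -0.24 and 0.23 in mot1-14 and -1.80 and -1.50 in TBP-F207L.

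Genes of metal and phosphate supply also differed, and again not uniformly. Of 37 iron and copper genes, 15 were higher and 9 lower (8 and 8 in the separate channels), against 29.3% and 29.7% of all genes tested. DRE2, of cytosolic iron-sulfur assembly, lay at -0.88 and -0.79 in mot1-14 and at 0.66 and 0.86 in TBP-F207L (difference 1.60, SE 0.06). ISU2, a mitochondrial iron-sulfur scaffold, and HMX1, heme oxygenase, were each higher by 1.54 (SE 0.10 and 0.05). The siderophore transporter SIT1 was higher by 0.93 and the iron oxidase FET3 by 0.43. FRE7, a metalloreductase gene, lay at 0.75 and 0.99 in mot1-14 and at -0.93 and -1.002 in TBP-F207L (difference -1.84, SE 0.08). The copper transporter CTR1 was lower by 1.04 and the copper chaperone ATX1 by 0.88. Of 21 phosphate genes, 13 were higher and 3 lower, with a median of 0.31 (8 and 1 in the separate channels). SPL2, a regulator of phosphate transporters, was higher by 1.30 (SE 0.05) and VTC1, of the polyphosphate polymerase, by 1.02 (SE 0.07, and by 0.67 with median centring), while the acid phosphatase PHO5 lay near 1.5 above WT in both strains and differed by 0.04 (adjusted p = 0.675; -0.19, which passed, with scale normalization).

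Multidrug transporter genes were more often lower. Of 20 of them, 12 were lower and 4 higher, with a median of -0.29 (8 and 1 without the dye term, 8 and 0 in the separate channels). TPO2, a polyamine exporter, lay at 0.69 and 0.71 in mot1-14 and at -1.06 and -1.12 in TBP-F207L (difference -1.79, SE 0.05, adjusted p = 1.16e-06). AQR1, an exporter of acids and amino acids, was lower by 1.31 and the drug pump PDR5 by 0.96. AQY2 and YLL053C, which in the reference strain are parts of 1 disrupted aquaporin gene, were lower by 1.47 (SE 0.09) and 1.94 (SE 0.05). Of 25 ergosterol genes, 8 were higher and 11 lower, against 29.3% and 29.7% of all genes tested. The counts were 3 and 10 with median centring, 5 and 7 without the dye term and 3 and 8 in the separate channels. ERG28 and ERG1 were lower by 1.05 and 0.93, while ERG12 of the mevalonate branch was higher by 0.47 but not without the dye term (adjusted p = 0.0794).

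Histone genes were higher in 9 of 10 cases, with a median of 0.39. Their median against WT was -0.19 in mot1-14 and 0.21 in TBP-F207L. HHF1, a histone H4 gene, was higher by 0.65 (SE 0.05, and by 0.32 with median centring) and HTB1, of H2B, by 0.60 (SE 0.05), while the second H2B gene, HTB2, differed by 0.00 (adjusted p = 0.961). With median centring 5 passed, without the dye term 6, and with the mutants' own channels alone 4 did, all higher. Of 36 genes of pheromone signalling and cell fusion, 22 were higher and 2 lower, with a median of 0.27 (11 and 0 without the dye term, 14 and 0 in the separate channels). PRM5, PRM2 and FIG1, which pheromone induces, were higher by 1.16, 1.07 (1.65 with the deposited log ratios for PRM2) and 1.11. Not every pheromone gene was higher: STE4, SST2 and FAR1 did not pass, with differences of 0.09, 0.07 and -0.01. Outside this list, the a-factor genes parted: MFA1 was higher by 0.97 (SE 0.07) and MFA2 differed by -0.52 (-0.23 at the least under the alternatives).

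For some differences, the mean of 1 strain lay within 0.25 of WT. That strain could still pass its own test against WT, as YLL053C did at 0.24 in mot1-14. Among genes near WT in TBP-F207L, the largest positive differences were CDC60, leucyl-tRNA synthetase, at -0.92 and -0.87 in mot1-14 and -0.12 and -0.004 in TBP-F207L (difference 0.83, SE 0.05), and FSF1, a mitochondrial carrier-like gene (0.77). The largest negative ones were COS8 and SHR5, a palmitoyltransferase subunit that lay at 1.51 and 1.85 in mot1-14 and at -0.17 and 0.11 in TBP-F207L (difference -1.71, SE 0.06). Among genes near WT in mot1-14, ISU2 and SPL2 led the positive side and YLL053C and HXT3 the negative side. FCY21, a purine-cytosine permease gene, belonged to the same class, at -0.26 and -0.18 in mot1-14 and -1.76 and -1.60 in TBP-F207L. The rule sets which mean is near WT, so the counts of such genes carry no test.

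**Figure D5:**
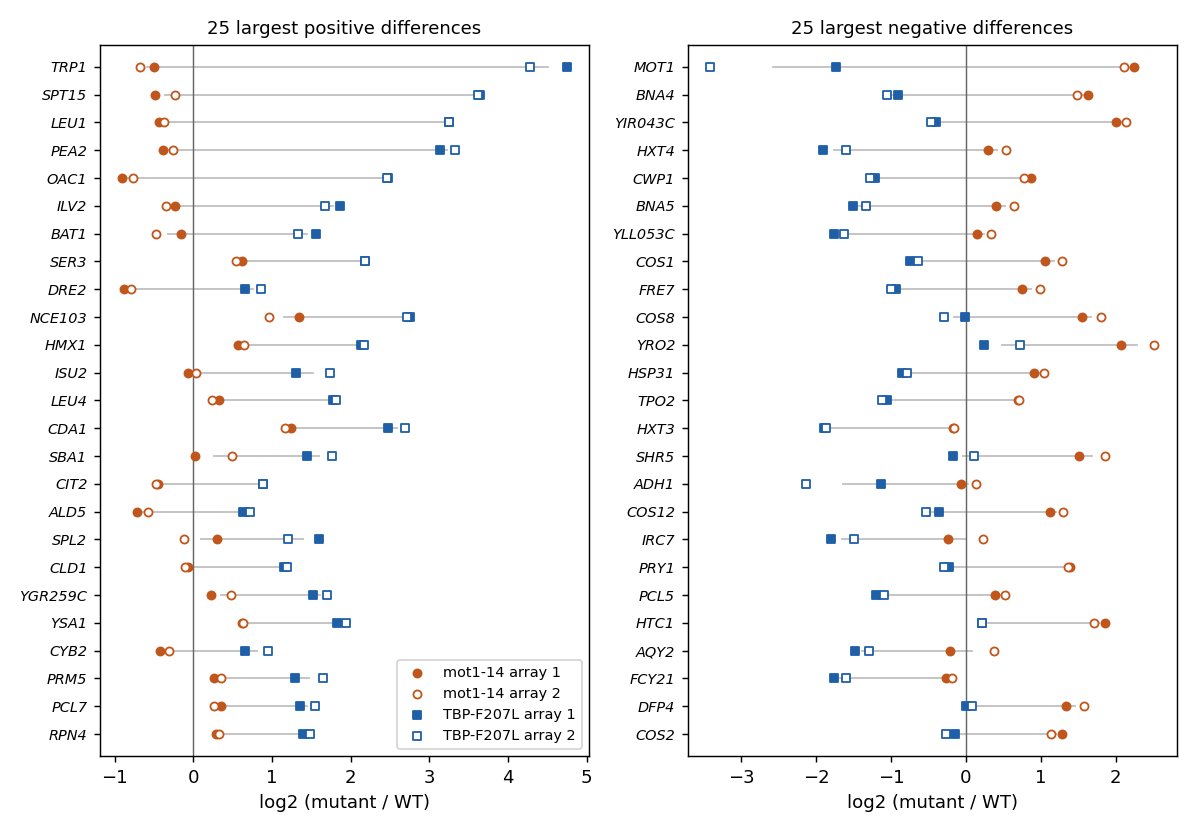
Log2 ratio of mutant to WT on each of the 4 arrays for the 25 largest positive and the 25 largest negative differences among genes that passed limma's test, with symbols as in the plot of leucine and NAD genes. The 2 strains' arrays do not overlap in any gene drawn, which largely follows from choosing the largest differences and is no further support. Of all genes tested, 58.9% passed.

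The other bypass strain, TBP-Y185C, gave a measure of which values TBP-F207L shares with it. The genes given here were named for differences from mot1-14 on the same TBP-F207L arrays, which favours more extreme values in TBP-F207L. LEU1 and OAC1 were also high in TBP-Y185C, at 2.85 and 2.14 above WT, yet TBP-F207L exceeded it by 0.40 (adjusted p = 0.00137) and 0.32 (adjusted p = 0.00543). The bypass strains lay further apart in the glucose genes given here. HXT4, HXT3 and HXT1 lay at -0.75, -0.92 and -1.16 in TBP-Y185C, and TBP-F207L was lower by 1.01, 0.96 and 1.20. ENO1 lay at -0.11 in TBP-Y185C, and TBP-F207L was lower by 1.01 (adjusted p = 0.000123). In all, 2350 genes passed between the bypass strains (38.4%), and 58.9% of genes passed between TBP-F207L and mot1-14. Both comparisons use the same TBP-F207L arrays, and which strain lies nearer to TBP-F207L was not tested.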

How the data were processed

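RNA of 3 mutants was measured against WT on 6 Agilent two-colour arrays. Per the file headers, the authors extracted the spots with Agilent Feature Extraction 7.5.1, and the deposited files give each spot's mean and background intensity in both channels, a log10 log ratio with its p-value, and flags. The deposited series table holds log2 ratios, whose scale and direction were checked against the scanner values (correlation 0.9989 or more), and which served as an alternative together with the deposited log10 ratios. The deposited p-values were not used.

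Mean and background intensities were corrected with normexp (offset 50), normalized by loess within each array and turned to mutant over WT in limma 3.58.1 (R 4.3.3). Control spots had weight 0 in the loess fit and were then left out, as were spots with an outlier flag. Spots of 1 probe were averaged, giving 6256 genes. Of these, 24 were well above background in either channel on fewer than 2 arrays and 105 lacked a value on a mot1-14 array, which left 6127. All 6 arrays shared 1 fit with a term for each mutant and 1 for dye orientation, and p-values were adjusted over all genes by Benjamini and Hochberg. The fit was tested on simulated data. Of the genes, 5756 matched a name in the reference table (assembly R64) and 500 kept the file's name. Every data column was assigned to a sample.

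The dye orientation given in the labels numbers the arrays, and deviations of same-numbered arrays of both mutants correlated across genes at 0.725. Background, normalization, filter, dye term, threshold and single arrays were varied. Slide could not be used as a block, because each slide held 1 mutant.

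The genes and lists were chosen with earlier results of these data known. Genes were named if they define the strains, were among the 25 largest differences in a direction, were among the 8 largest in a direction with 1 mutant within 0.25 of WT, were among the 6 largest of a list, or completed a pathway or complex. The other genes named, such as SLT2, CHS1, TMA10, RPL38 and RPS26B, were chosen after their values were seen. No sequence was used here.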

Additional observations from a re-analysis of the deposited data

Results flagged for a closer look

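The 50 genes with the largest differences were examined for opposite directions. In 27 of them the mutants lay on opposite sides of WT on all 4 arrays, each mutant passed limma's test against WT, and so did the difference between them, given here as TBP-F207L minus mot1-14 on the log2 scale. Genes with smaller differences were not examined here. Choosing the largest differences favours opposite sides of WT, so the count of 27 is no further support. Strain construction cannot be told apart from regulation for TRP1 at 5.10, SPT15 at 3.99, PEA2 at 3.55 and MOT1 at -4.75. Above WT in TBP-F207L and below it in mot1-14 were the amino acid genes LEU1 at 3.65, OAC1 at 3.30, ILV2 at 2.06 and BAT1 at 1.76. The same held for DRE2 at 1.60, CIT2 at 1.34, ALD5 (a mitochondrial aldehyde dehydrogenase) at 1.31, CLD1 (a cardiolipin deacylase) at 1.26 and CYB2 at 1.17.

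Below WT in TBP-F207L and above it in mot1-14 were the NAD genes BNA4 at -2.54 and BNA5 at -1.95 and the hexose transporter HXT4 at -2.17. Genes of the COS family were COS1 at -1.87, COS12 at -1.66 and COS2 at -1.41, besides YIR043C at -2.50. COS12 lay at -3.52 with the deposited log ratios. The others were CWP1 at -2.07, YLL053C at -1.94, FRE7 at -1.84, HSP31 at -1.79, TPO2 at -1.79, PRY1 (a sterol-binding secreted protein) at -1.64 and PCL5 (a Pho85 cyclin) at -1.60.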

How the results depend on the processing

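The 50 largest differences kept their direction and their side of the threshold under all 17 alternatives. They had been chosen from these same arrays for size, for passing and for the same sign in both pairs, which largely sets that outcome. Over all genes, 1588 differences passed with no replicate block, that is without the dye term (749 higher, 839 lower), and 1367 in the mutants' separate channels, chosen after the data were seen (593 higher, 774 lower). With the replicate block taken as matched differences between same-numbered arrays, 3437 passed. With the deposited log ratios 54 genes were higher and 106 lower by 2-fold or more, and 53 and 105 with the authors' series table. Leaving out 1 array gave 2589 to 3516 genes that passed (1232 to 1783 higher, 1357 to 1733 lower), 28 to 40 higher and 59 to 66 lower by 2-fold or more, 3523 to 4625 against WT in mot1-14 and 4191 to 4831 in TBP-F207L. Of 380 genes followed singly, 74 lost their call in separate channels and 53 without the dye term. GAL3 reversed to -0.0584 with median centring, and ATP19 to 0.0484 and TIM11 to 0.107 in separate channels. The cause was not tested. Where 1 array was left out, the lone array of its strain was assumed to vary like the others. A block for slide was not run, because slide and mutant cannot be told apart. In mot1-14, 20 genes were well above background on neither array, and in TBP-F207L 3.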

Other observations

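Genes nearest the chromosome ends were lower in TBP-F207L more often than the rest, a grouping chosen after the values were seen. Of the 5 genes nearest each end, 141 were tested and 66 were lower (46.8%), with a median of -0.14 on the log2 scale, against 28.7% of 5038 genes farther inward. Without COS, PAU, DAN and TIR genes, 40 of 114 were lower (35.1%) and 28 were higher, with a median of -0.03. TNA1, the nicotinic acid permease, was lower by 0.44, and by 0.24 without TBP-F207L array 2. It did not pass without mot1-14 array 2, in the separate channels or with the deposited log ratios. The reading frame YGR259C was higher by 1.26. Among the largest positive differences, CDA1, a chitin deacetylase, lay at 1.25 and 1.16 above WT in mot1-14 and at 2.47 and 2.70 in TBP-F207L. NCE103, carbonic anhydrase, lay at 1.34 and 0.97 and at 2.75 and 2.72.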
